A study of Mus musculus with 4 samples.

Results

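The miR-183 cluster, which also holds miR-96 and miR-182, was examined in small RNA libraries of extracellular vesicles from mouse C2C12 myoblasts. Its members are the rows of the deposited count table on the minus strand of chromosome 6 that hold both arms of these 3 miRNAs, which makes 6 of the 2110 rows. The cluster was selected on its own counts: it was chosen by the lower values of its 5p arms in damaged than in WT vesicles when these same 4 libraries were compared before. Its values in damaged against WT are therefore given as a description, and no test of that contrast is drawn from them.

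All vesicles came from the C2C12 line, a cultured mouse myoblast line with a WT genotype label, kept in DMEM with 10% fetal bovine serum and penicillin and streptomycin. The damaged group (2 libraries) was treated with hydrogen peroxide, an oxidant, and the WT group (2 libraries) has WT as its treatment label. The dose, the length of treatment and whether the myoblasts had been differentiated are not stated in the labels, and a single cell line was used. Vesicles were isolated by differential centrifugation, and the question was how vesicle miRNA cargo differs after damage to muscle cells.

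A miRNA hairpin yields a short RNA from each of its arms, named 5p and 3p, and usually 1 of them is kept by the silencing complex. Bases 2 to 8 of the kept strand, the seed, decide most of its mRNA targets. The 3 hairpins of this cluster are made from 1 primary transcript and are best known from sensory cells of the ear, eye and olfactory system: changes in the miR-96 seed cause hearing loss in people and in mice. In muscle cells of the mouse, miR-182 is known to repress Foxo3, a transcription factor that switches on atrophy genes. In human cancer cells, miR-96 and miR-182 repress FOXO1, and miR-183 represses ezrin, a linker of membrane and actin.

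The mature sequences are shown because the seeds set the members apart from each other. They come from RefSeq (GRCm38.p6, the assembly of mm10), 5′ to 3′, with bases 2 to 8 in capitals.
miR-183-5p: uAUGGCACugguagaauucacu
miR-96-5p: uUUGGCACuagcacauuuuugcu
miR-182-5p: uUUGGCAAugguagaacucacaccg
miR-183-3p: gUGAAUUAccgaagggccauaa
miR-96-3p: cAAUCAUGuguagugccaauau
miR-182-3p: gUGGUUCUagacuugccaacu

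miR-96-5p and miR-182-5p share bases 2 to 7 and differ at base 8, whereas miR-183-5p has another base 2. Over the whole length, seed included, the likeness runs the other way. Set base against base from the 5′ end with no gap, miR-182-5p and miR-183-5p were identical at 18 of 22 bases (81.8%). Their longest shared run was 8 bases, against 7 in each of the other pairs. miR-182-5p and miR-96-5p were identical at 12 of 23 (52.2%), and miR-96-5p and miR-183-5p at 13 of 22 (59.1%). All 5p arms start with U, and the 3p arms start with G, C and G. None of the 6 rows has a second gene copy in the table, and none shares bases with an entry on the opposite strand, although counting took no account of strand. Among the 2098 rows with a known sequence, 4 carried bases 2 to 7 of a 5p member, and the only one outside the cluster was miR-1271-5p, on chromosome 13, with the full seed of miR-96-5p.
miR-1271-5p: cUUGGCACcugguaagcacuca

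miR-1271-5p had 0 counts in all 4 libraries, so among rows with a known sequence every read of these seeds fell on the cluster. The 12 unnamed rows have no sequence here and could not be searched.

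The hairpins, with both mature arms in capitals, show where each counted row lies.
Mir183: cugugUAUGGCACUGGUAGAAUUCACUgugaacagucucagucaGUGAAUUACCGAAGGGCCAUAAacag
Mir96: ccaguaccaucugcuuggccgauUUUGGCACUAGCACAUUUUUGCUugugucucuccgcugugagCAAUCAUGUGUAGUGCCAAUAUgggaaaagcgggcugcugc
Mir182: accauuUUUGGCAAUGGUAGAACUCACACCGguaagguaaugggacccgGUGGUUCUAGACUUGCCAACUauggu

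In mm10, miR-183-5p (MIMAT0000212) lies at chr6:30169711-30169732. The row of miR-96-5p (MIMAT0000541) lies at chr6:30169506-30169528, and that of miR-182-5p (MIMAT0000211) at chr6:30165962-30165986. Their 3p arms lie at chr6:30169672-30169693, chr6:30169465-30169486 and chr6:30165923-30165943 in the same order. Only 116 bases separate the Mir183 and Mir96 hairpins, and 3453 separate Mir96 from Mir182. RefSeq places all 3 within the span of Mirc35hg, a long non-coding RNA gene at chr6:30158640-30174125, between Nrf1, which encodes a regulator of mitochondrial genes, and Ube2h, which encodes a ubiquitin-conjugating enzyme.

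Because the members share that primary transcript, the RefSeq promoter window of Mirc35hg is shown (chr6:30174076-30174375, minus strand, GRCm38.p6, 250 bases before to 50 after the annotated start), with the motif matches in capitals.
Mirc35hg promoter: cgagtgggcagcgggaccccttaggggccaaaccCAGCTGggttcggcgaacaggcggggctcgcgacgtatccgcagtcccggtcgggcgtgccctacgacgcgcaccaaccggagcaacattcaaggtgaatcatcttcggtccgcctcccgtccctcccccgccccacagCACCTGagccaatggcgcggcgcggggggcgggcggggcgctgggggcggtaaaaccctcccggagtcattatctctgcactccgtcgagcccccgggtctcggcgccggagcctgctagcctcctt

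The window is 70.3% G and C, against a median of 52.7% over all 32851 promoter windows, and holds 35 CG pairs against a median of 7. Of 5 motifs searched on both strands, CAGCTG, an E-box bound by myogenic factors, occurred once, as it does at least once in 16.3% of all windows. CAGGTG, an E-box of ZEB and SNAI repressors, occurred once as CACCTG, and is found in 20.2% of windows. The MYC E-box CACGTG (in 7.15% of windows), the AP-1 site TGAGTCA (5.20%) and the antioxidant response element core TGACNNNGC (12.4%) were not among these letters. The motifs searched do not overlap each other in this window. A match describes letters only and is no evidence of binding.

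Library totals ran from 4577668 to 7638663 counts and the number of rows with any count from 692 to 746. Whether replicates were separate cultures is not stated, so the spread between them may be technical. The muscle label was met: the 4 muscle markers (miR-206-3p, miR-1a-3p, miR-133a-3p and miR-133b-3p) summed to 298790 to 335221 CPM, the count scaled by depth and TMM, in WT and to 357071 to 372172 CPM in damaged, nearly all of it miR-206-3p. Against the direction of the cluster, miR-133a-3p, a muscle miRNA summed over its 2 copies, was at 4087 and 4381 CPM in WT and 9268 and 9227 CPM in damaged, and miR-133b-3p at 615.2, 663.7, 1580 and 1403 CPM. edgeR called both higher, with log2 fold changes of 1.12 and 1.14 for the copies of miR-133a-3p and 1.22 for miR-133b-3p, and called neither miR-206-3p (0.18) nor the tested copy of miR-1a-3p (0.28); the part of this in the cluster's values was not tested. Values per library follow the order WT replicate 1, WT replicate 2, damaged replicate 1, damaged replicate 2.

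The cluster as a whole was a small part of the cargo and was lower in damaged vesicles. Its 6 rows took 8425, 14541, 5858 and 5605 counts, which is 0.184%, 0.190%, 0.0849% and 0.0763% of each library. After scaling the sums were 1866, 1910, 854.5 and 745.4 CPM. Both damaged libraries lay below both WT libraries, with group means (SD, n = 2) of 1888 ± 31.0 and 800.0 ± 77.2 CPM, a 2.36-fold lower sum. All these values are shares of a library: fewer vesicles or cells that carry the cluster and less of it in each cannot be told apart in such data.

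miR-183-5p, the first miRNA of the transcript, had 2310, 4983, 1619 and 1653 counts, or 511.5, 654.4, 236.2 and 219.8 CPM. The WT libraries differed from each other by more than the damaged ones did, and the groups did not overlap. The means were 583 ± 101 CPM for WT and 228 ± 11.6 CPM for damaged (SD, n = 2), with a log2 fold change fitted by edgeR of -1.35 (SE 0.18).

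miR-96-5p, the member tied to hearing, had 2866, 3831, 1632 and 1418 counts, or 634.7, 503.1, 238.1 and 188.6 CPM. Here WT replicate 1 was the higher WT library, the reverse of miR-183-5p, and again the groups did not overlap. The group means were 568.9 ± 93.0 and 213.3 ± 34.99 CPM (SD, n = 2), and the log2 fold change was -1.41 (SE 0.20).

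miR-182-5p, the regulator of Foxo3, was the most abundant member in every library. It had 3185, 5598, 2598 and 2460 counts, or 705.3, 735.1, 379.0 and 327.2 CPM. The WT libraries lay close together and well above both damaged ones, with means of 720.2 ± 21.1 and 353.1 ± 36.6 CPM (SD, n = 2) and a log2 fold change of -1.03 (SE 0.14).

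**Figure D1:**
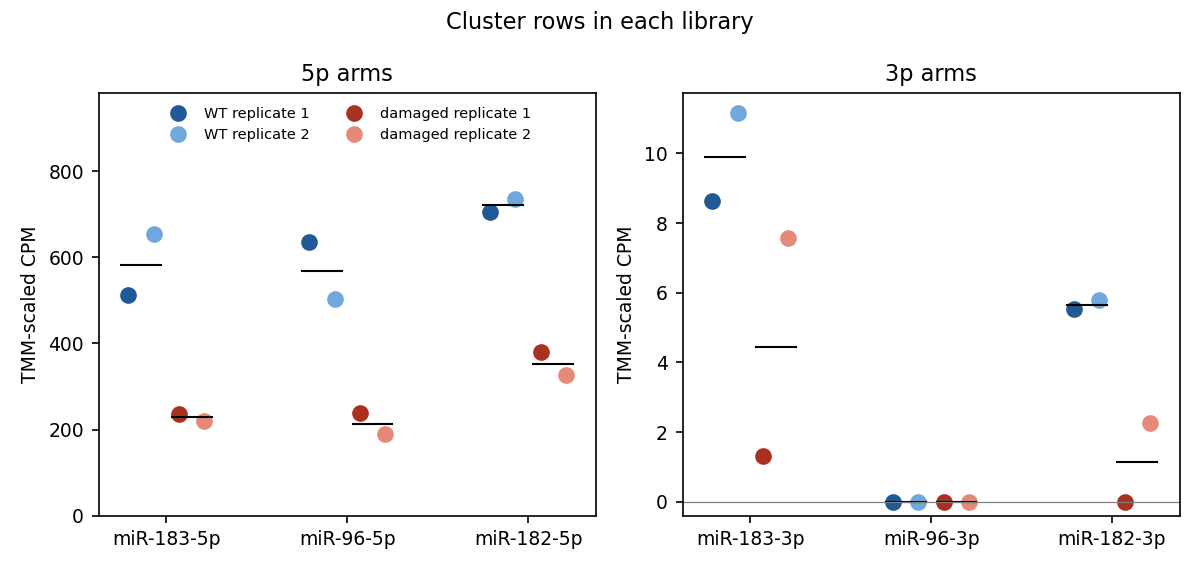
TMM-scaled CPM (vertical axes, separate scales) of the 3 5p arms (left) and the 3 3p arms (right) in each of the 4 libraries, with a bar at each group mean (n = 2). For each 5p arm both damaged libraries lie below both WT libraries, the closest approach as a ratio being miR-182-5p at 379.0 CPM in damaged replicate 1 against 705.3 CPM in WT replicate 1.

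edgeR's quasi-likelihood test over the whole table tested 536 rows, 5 of them in the cluster. At an adjusted p under 0.05 it called 3 of these 5 lower, namely the 5p arms, and none higher. Of all tested rows 5.41% were called lower, 4.1% higher and 9.51% in either direction. These shares are over rows of every level, whereas most rows called lower were, like the 5p arms, among the more abundant. Copies of the same miRNA, as of miR-7a-5p, were counted separately. All 5 tested cluster rows had both damaged libraries below both WT libraries, which held for 30.8% of tested rows, while 29.1% had both above. Leaving out a single library moved the calls: all 3 were lost on leaving out either WT library or the first damaged one, when edgeR called 0 rows in the whole table while 103 to 144 rows had an unadjusted p under 0.05. On leaving out damaged replicate 2, miR-183-5p and miR-96-5p stayed called and miR-182-5p did not. Since this contrast chose the cluster, the counts describe it and add no support. The median log2 fold change of the 5 rows was -1.35, beside 0.02 over all tested rows. In all, 82 of the 536 rows had a log2 fold change as low as that of miR-182-5p or lower.

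**Figure D2:**
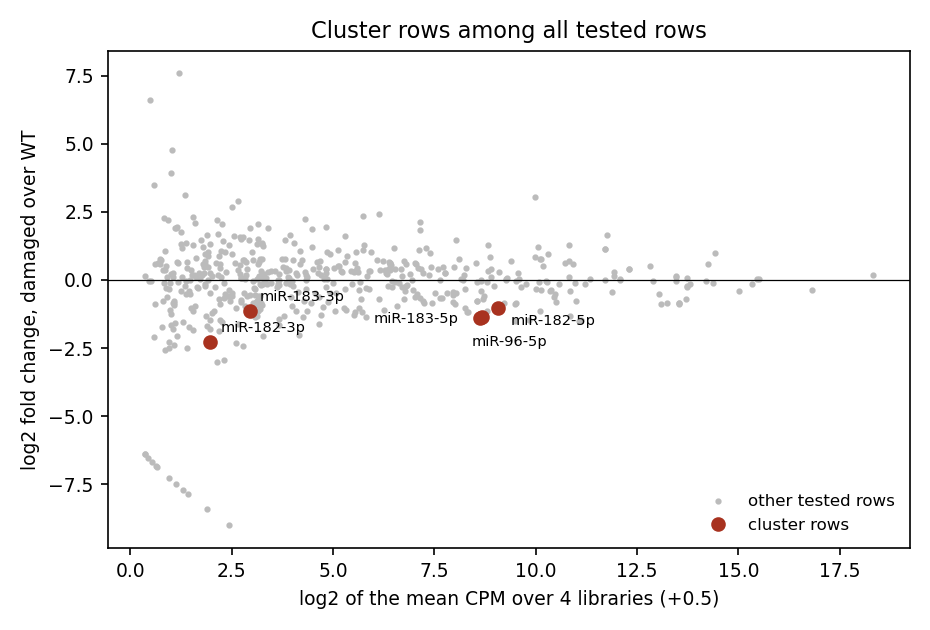
Log2 fold change (damaged over WT) of each of the 536 tested rows against the log2 of its mean CPM over the 4 libraries plus 0.5; cluster rows are red and named. The 3 5p arms lie together at log2 fold changes of -1.03 to -1.41, and the 3p arms lie far to the left, where values of all rows scatter widely.

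The order of levels is a measure that did not choose the cluster. By mean CPM over the 4 libraries miR-182-5p ranked 85 among the 2110 rows, miR-183-5p 96 and miR-96-5p 100. Within WT they ranked 77, 84 and 85, and within damaged 98, 115 and 121, in the same order. miR-182-5p was above miR-183-5p in 4 of 4 libraries, by 1.39-fold on average (mean log2 ratio 0.47 ± 0.22, SD, n = 4; exact two-sided sign-flip permutation test, p = 0.125, adjusted p = 0.250 over 2 pairs). With 4 libraries 0.125 is the smallest p this test can give. The log2 ratio per library was 0.46, 0.17, 0.68 and 0.57, higher in both damaged libraries, so the SD also holds the difference between the groups. miR-183-5p and miR-96-5p could not be ordered: miR-183-5p was the higher in 2 of 4 libraries, with a mean log2 ratio of 0.07 ± 0.30 (SD, n = 4; exact two-sided sign-flip permutation test, p = 0.750, adjusted p = 0.750). A mature miRNA is counted as 1 read whatever its length, so these levels are compared as reads per miRNA, and ligation and amplification can favour some sequences over others.

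The make-up of the cluster was alike in both damaged libraries. Of the 5p counts, miR-182-5p took 38.1% and 38.8% in WT and 44.4% and 44.5% in damaged. The exact 95% intervals were 37.1 to 39.1, 38.1 to 39.6, 43.1 to 45.7 and 43.2 to 45.8 in the same order, and cover counting error within each library, not the spread between libraries. Its mean share (SD, n = 2) went from 38.5% ± 0.530 to 44.5% ± 0.0415, a difference of 5.98 percentage points, which restates its smaller fold change and is likewise untested. An exact permutation test of 2 libraries against 2 cannot give a two-sided p below 0.333.

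The shares of the other two members moved within WT. miR-183-5p took 27.6% (exact 95% interval 26.7 to 28.6) of the 5p counts in WT replicate 1 and 34.6% (33.8 to 35.4) in WT replicate 2. miR-96-5p went the other way, with 34.3% (33.3 to 35.3) and 26.6% (25.9 to 27.3). The damaged libraries had 27.7% and 29.9% for miR-183-5p and 27.9% and 25.6% for miR-96-5p, inside or close to the range spanned by the WT libraries. The WT intervals lay apart for both members, which come from neighbouring hairpins, while those of the damaged libraries overlapped (26.5 to 28.9 and 28.7 to 31.1 for miR-183-5p, 26.8 to 29.1 and 24.5 to 26.8 for miR-96-5p).

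**Figure D3:**
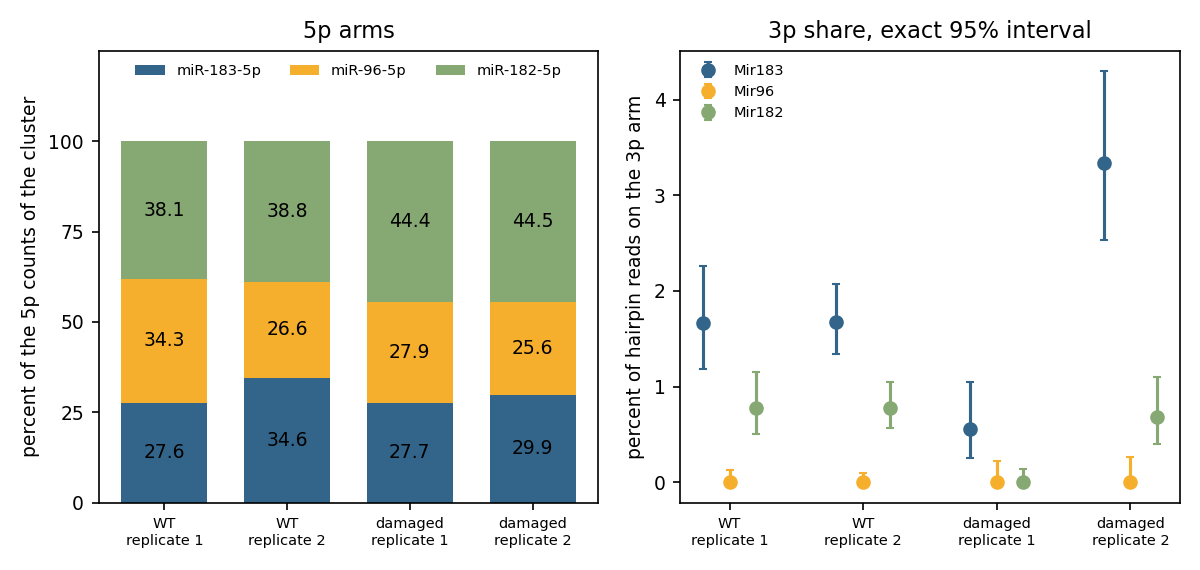
Left, percent of the 5p counts of the cluster taken by each member in each library. Right, percent of each hairpin's reads that fell on the 3p arm, with exact 95% intervals; miR-182-5p takes 44.4% and 44.5% in damaged against 38.1% and 38.8% in WT, while the 3p share of Mir183 in the damaged libraries lies on either side of WT.

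Nearly all reads came from the 5p arms. Over the 4 libraries the 5p arm held 98.2% of reads of Mir183 (10565 against 190), 99.4% of Mir182 (13841 against 86) and all 9747 reads of Mir96. Among 115 other hairpins with both arms in the table, single copies and at least 1000 counts, the 5p arm was the larger in 69 and held at least 98% of reads in 40.

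miR-183-3p had 39, 85, 9 and 57 counts, or 8.64, 11.2, 1.31 and 7.58 CPM. Damaged replicate 1 was far below the other libraries: its 9 counts have an exact Poisson 95% interval of 4.12 to 17.1, and the 57 of damaged replicate 2 one of 43.2 to 73.9. Its fitted log2 fold change, not called by edgeR, was -1.15 (SE 0.83). It was -0.42 without damaged replicate 1 and -2.91 without damaged replicate 2. As a share of Mir183 reads the 3p arm was 1.66%, 1.68%, 0.553% and 3.33%, so the damaged libraries stood below and above WT.

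miR-182-3p had 25, 44, 0 and 17 counts, or 5.54, 5.78, 0 and 2.26 CPM. The 0 in damaged replicate 1 allows up to 3 counts, or 0.435 CPM. Its fitted log2 fold change, also not called, was -2.29 (SE 1.43), and -1.34 without damaged replicate 1. Without damaged replicate 2, the limit of 3 counts in damaged replicate 1 lay 12.9-fold below the WT mean of 5.61 CPM, by CPM over library totals. That ratio leaves out the counting error of the WT libraries and rests on 1 damaged library. Of Mir182 reads the 3p arm took 0.779%, 0.780%, 0% and 0.686%, where the 0 allows up to 0.115%. The 3p share of Mir182 in damaged replicate 2 was thus close to WT, and for both hairpins damaged replicate 1 had the lowest 3p share of the 4 libraries.

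miR-96-3p had 0 counts in all 4 libraries, against 1418 to 3831 counts of its partner arm. In each library that allows a 3p share of Mir96 reads of up to 0.0783% to 0.212%. The row was not tested.

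The weaker arms of other hairpins were then looked at, a comparison chosen after these values were seen. Over 70 hairpins with at least 100 counts on the weaker arm, that arm's median share was 4.98%, 4.87%, 5.91% and 7.36%. It was lowest of the 4 libraries in damaged replicate 1 for 21 hairpins, in WT replicate 1 for 22, in WT replicate 2 for 17 and in damaged replicate 2 for 10. The part of this shift between libraries in the cluster's 3p values was not tested.

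None of the miRNA rows nearest on chromosome 6 was called, beside 9.51% of all tested rows called in either direction. At that share, the lack of a call among so few rows says little about them. Within 2000000 bases there were 8 other rows, 7 of them tested, with log2 fold changes from -0.63 to 0.65. miR-335-5p, from an intron of the imprinted gene Mest, lies 571.6 kb away and had 223.7, 92.97, 92.78 and 110.5 CPM. WT replicate 1 stood alone above the other libraries, and edgeR gave a log2 fold change of -0.63 (SE 0.42) with adjusted p = 0.371. miR-29a-3p, a repressor of collagen genes 893 kb away, had 1675, 1772, 2107 and 1621 CPM, and the groups overlapped (edgeR log2 fold change 0.11 with SE 0.16, adjusted p = 0.712). miR-29a-5p was at 17.9, 19.3, 28.9 and 29.5 CPM, above WT in both damaged libraries, as were 29.1% of tested rows. Its log2 fold change was 0.65 (SE 0.25), which edgeR did not call (adjusted p = 0.160). miR-129-5p, at -1147 kb on the other side, had -0.10 (SE 0.26, edgeR adjusted p = 0.872), and reads of its identical copy elsewhere cannot be told apart. A difference between these rows and the cluster was not tested.

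**Figure D4:**
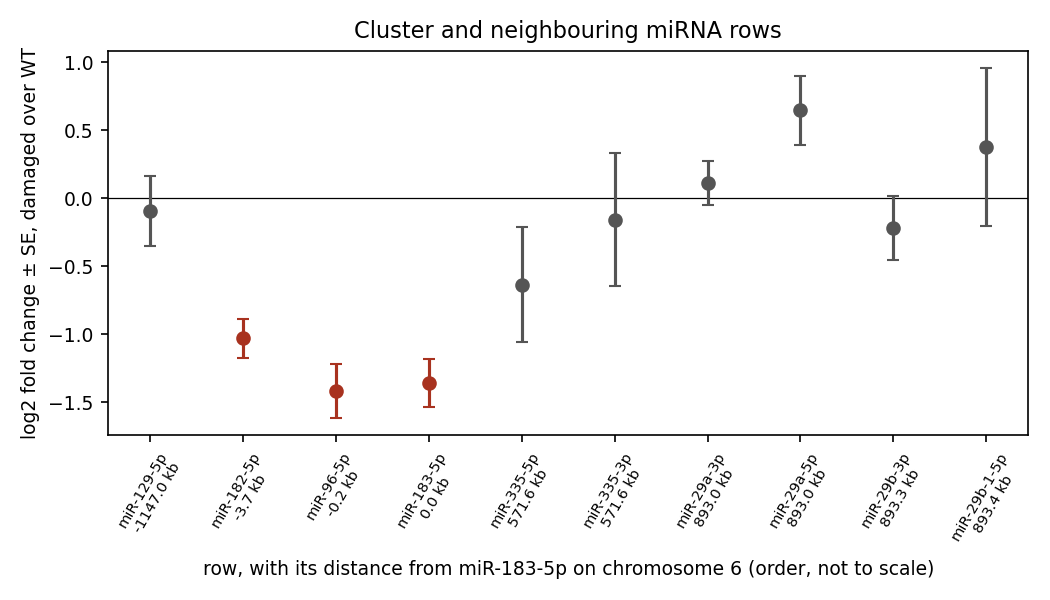
Log2 fold change ± SE (damaged over WT) of the 5p arms of the cluster (red) and of the 7 tested miRNA rows within 2000000 bases on chromosome 6 (grey), in order of position with the distance from miR-183-5p in kb. The cluster lies between -1.03 and -1.41 and the neighbours between -0.63 and 0.65.

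Rows whose profile over the 4 libraries was most like that of the cluster came from other chromosomes. Likeness was the Euclidean distance between log2 CPM values, each centred on its own mean over the libraries, from the mean profile of the 5p arms. The members themselves lay at 0.232 (miR-182-5p), 0.259 (miR-183-5p) and 0.308 (miR-96-5p) from that mean, and the median of all other tested rows was 1.53. The mean was made from these same arms, which were chosen for being lower in damaged, so their closeness was set in advance. Nearest was the Mir669m-2 row of miR-669m-5p at 0.107, a low row of the Sfmbt2 repeat cluster with 82, 151, 54 and 55 counts and an identical copy. miR-25-3p, within Mcm7, followed at 0.150, with 1507, 1518, 699.3 and 663.6 CPM. miR-322-5p, an X-linked miRNA that promotes cell cycle exit in myoblasts, was at 0.187, with 2715, 2592, 1211 and 897.2 CPM. miR-351-5p of the same X-linked cluster and miR-497a-5p, which shares the seed family of miR-15 and miR-16, were at 0.234 and 0.238. All 5 were lower in both damaged libraries, as a profile near that of the cluster requires.

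The 3 other polycistronic clusters compared were also lower in damaged vesicles by sum, and further clusters were not summed. Summed levels were 1.93-fold lower for the miR-106b, miR-93 and miR-25 cluster (3382 ± 205.9 and 1751 ± 140 CPM, WT first), 1.72-fold for the cluster of miR-17 to miR-92a (2782 ± 385 and 1615 ± 240 CPM) and 2.24-fold for the X-linked cluster of miR-322, miR-503, miR-351, miR-542 and miR-450 (4970 ± 217 and 2217 ± 123 CPM; SD, n = 2). The first 2 serve cell proliferation, and the X-linked one is expressed in growing and differentiating myoblasts. Of their tested rows, edgeR called 2 of 6, 0 of 10 and 4 of 13 lower, against 5.41% of all tested rows, and none higher, and median log2 fold changes were -0.99, -0.75 and -1.05. Negative log2 fold changes were found in 5 of 6, 7 of 10 and 11 of 13 rows, against 5 of 5 in the miR-183 cluster and 49.1% of all tested rows. In the X-linked cluster 2 of the 4 calls are copies of 1 mature miRNA, miR-450a-5p, so 3 of 12 distinct miRNAs were called and 10 of 12 were negative. miR-19b-3p and miR-92a-3p each have a second row outside the miR-17 to miR-92a cluster, and reads of such copies cannot be told apart. Differences between the clusters were not tested, and all 4 were set side by side with earlier results known.

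**Figure D5:**
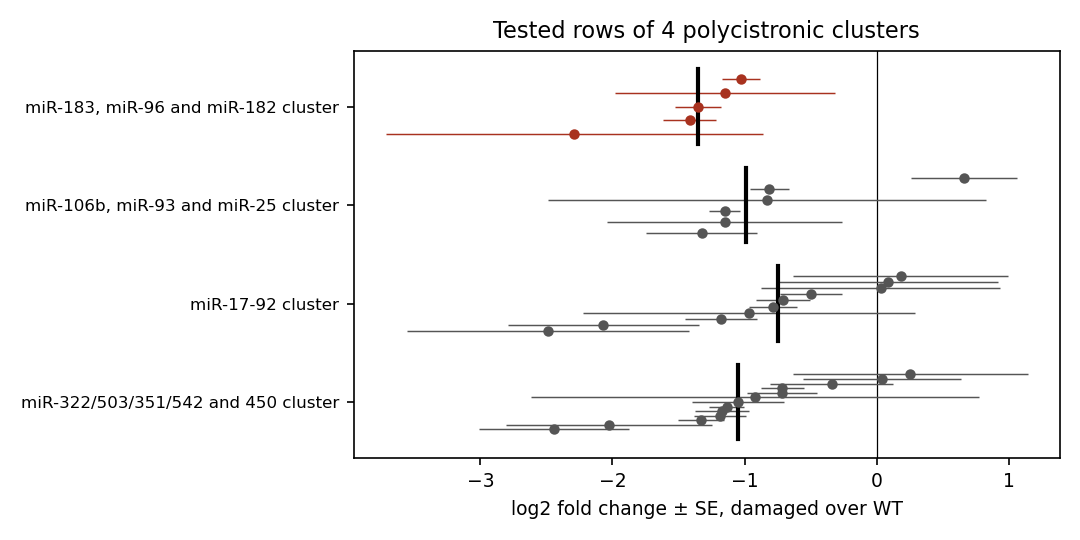
Log2 fold change ± SE (damaged over WT) of each tested row of the miR-183 cluster (red) and of 3 other clusters (grey), with a thick bar at each median. The medians are -1.35, -0.99, -0.75 and -1.05 from top to bottom, and the ranges of the clusters overlap.

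Markers of sensory, neural and epithelial cells were near 0. Of 5 sensory and neural markers, miR-9-5p was at 0 in every library, and miR-124-3p and miR-137-3p had 1 count each over all 4. The list summed to 6.30 to 10.2 CPM in WT and 8.11 to 8.17 CPM in damaged, mostly miR-204-5p, which overlapped between the groups. miR-211-5p, with 33 counts in all, was at 1.993, 2.495, 0.729 and 0 CPM, lower in both damaged libraries as the cluster was. That held for 30.8% of tested rows, and edgeR did not call miR-211-5p. Of 8 epithelial markers, miR-200b-3p, miR-141-3p and miR-203-3p were at 0 throughout. The sums were 6.30 to 7.53 CPM in WT and 11.8 to 17.5 CPM in damaged, higher where the cluster was lower. These sums rest on few counts: miR-429-3p was at 5.54 CPM in damaged replicate 1 and at 0 elsewhere. Only miR-200a-3p, with 7 counts in all, was higher in both damaged libraries than in both WT ones. miR-375-3p overlapped between the groups, and miR-205-5p was lower in damaged. The part of these markers in the cluster's values was not tested. Both endothelial markers were at 0. Of 7 blood markers, miR-486a-5p, miR-486b-5p and miR-142a-3p were at 0, and the sums of 1526 to 1745 CPM in WT and 1448 to 1555 CPM in damaged were almost all miR-451a. A copy of miR-1a-3p and rows of miR-9-5p, miR-203-3p, miR-486a-5p, miR-486b-5p, miR-142a-3p, miR-126a-3p and miR-126a-5p share bases with an entry on the other strand, where unstranded counting can drop reads, so a 0 or a low value there says little. The medium held bovine serum, and how much of the cluster's reads came from bovine vesicles was not tested.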

How the data were processed

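Small RNA reads were counted by the authors with featureCounts 2.0.1 over mature miRNA entries, per the file headers, and the deposited values are raw counts, 1 column per library. Reads were aligned with BWA to mm10, per the submitters' processing notes. The command in the header sets no strand, multi-mapping or overlap option. For trimming and the miRBase release no source used here gives a value. Rows were named by exact position from RefSeq (1734) or within GENCODE vM21 hairpins (364), and 12 stayed unnamed. edgeR 4.0.16 (R 4.3.3) was run on all counts with TMM scaling, after filterByExpr (minimum count 10), with a model of group alone and an adjusted p (Benjamini-Hochberg) threshold of 0.05. The SE is the log2 fold change divided by the square root of F. Code was tested on simulated data. Intervals are exact (Clopper-Pearson or Poisson, 95%). A count of 0 is taken to allow 3 counts, which is 0.393 to 0.655 CPM and lies below the exact Poisson upper limit of 3.69 counts. The intervals and this limit cover counting error only, since no molecular identifiers are described. The named rows were all members, the 5 nearest profiles, rows with a member's bases 2 to 7, chromosome 6 rows within 2000000 bases, and 3 clusters by sum. Members and lists were chosen with earlier results of these data known. Alternatives included DESeq2 1.42.0 and limma-voom (limma 3.58.1).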

Additional observations from a re-analysis of the deposited data

How the results depend on the processing

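In place of 51, edgeR called 77 with upper quartile scaling, 131 without a filter, 91 with at least 10 CPM in 2 libraries and 127 with the replicate number as a block, DESeq2 called 109 and limma-voom 79. RLE scaling, library totals and the GC correction, alone or with the block, stayed within 1.5 times. Leaving out 1 library gave 0 to 30 calls by edgeR; the 3 cases of 0 calls (all but damaged replicate 2) had 103 to 144 rows under 0.05 before adjustment. Same-numbered libraries did not deviate together from their group means (correlation of deviations 0.00316 over 536 rows). Whether they were prepared together is not stated and cannot be read from this value, so the replicate block is only an alternative. The log2 fold changes of the 5p arms stayed negative in all 10 settings on 4 libraries, at -1.43 to -1.23 for miR-183-5p, -1.47 to -1.28 for miR-96-5p and -1.10 to -0.99 for miR-182-5p, and without 1 library at -1.60 to -1.14, -1.61 to -1.27 and -1.16 to -0.94. All 3 5p arms were called in each of the 10 settings, but without 1 library only miR-183-5p and miR-96-5p were, each in 1 of 4 cases. Calls of cluster rows come from the contrast that chose the cluster, so they describe it and add no support. Rows tested in the settings on 4 libraries were 536, apart from 1001 without a filter and 318 with at least 10 CPM in 2 libraries. The 3p arms were called in none of 9 settings on 4 libraries, at -1.56 to -1.11 for miR-183-3p and -3.69 (limma-voom, with -3.11 for the replicate block) to -2.24 for miR-182-3p. The summed log2 ratio of -1.24 was -1.34 to -1.14 without 1 library. The log2 ratio of miR-183-5p to miR-96-5p was -0.034 without WT replicate 2, the lowest, and up to 0.20; the cause was not tested.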
